A study of Mus musculus with 3 samples.

Results

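The retinoic acid pathway genes Aldh1a1, Aldh1a2, Rbp4, Stra6, Dhrs3, Rara and Rarb were read out in single cells of the mouse kidney cortex. These 7 genes were taken by name from the 22535 genes listed in the count tables of 3 libraries, and they had been selected on their measured counts in these same cell classes and libraries, so their levels are given as a description. Their molecules were counted in cells that passed limits on detected genes (200 or more) and on mitochondrial molecules (50% or less), and were summed by cell class and by library. Retinol (vitamin A) circulates bound to the carrier RBP4 and enters cells through its receptor STRA6, or with its carrier through megalin in the proximal tubule. Inside the cell retinol is oxidised to retinal and then, by the ALDH1A retinaldehyde dehydrogenases, to retinoic acid, while DHRS3 turns retinal back into retinol and CYP26 enzymes break retinoic acid down. Retinoic acid binds the nuclear receptors RARA, RARB and RARG, which pair with RXR receptors on DNA and set the transcription of their target genes, and the pathway is known for its part in kidney development and in podocyte and glomerular parietal epithelial cell (PEC) biology.

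All mice were WT1CreERT2; Rosa26-tdTfl/+, so that after tamoxifen the red fluorescent protein tdTomato (tdT) labels Wt1-expressing cells and their descendants. The Cre sits in the Wt1 locus, which is active in podocytes as well as in a subset of PECs, and tdT therefore marks both cell types. Sham-operated mice gave the library Sham, a 2:1 mixture of tdT+ and tdT- cells. Mice taken 24 h after severe bilateral ischaemia-reperfusion injury (severe IRI) gave a mixture of the same kind, IRI24h-TDN, and a library without tdT- cells, IRI24h-TD. Kidneys were pooled within a library. A condition had a single library, which leaves differences between conditions without replicates, and none was tested. Where 3 values follow each other without library names they are in the order Sham, IRI24h-TDN, IRI24h-TD.

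Each captured RNA molecule was tagged with a unique molecular identifier (UMI). After filtering, 26760 of 30008 barcodes were kept (8047, 9024 and 9689 by library), with a median of 7746, 9151 and 9529 UMIs per cell. Cells were clustered without the 7 genes and without 56 other retinoid genes, and the clusters were named from marker lists that hold none of them. A name ending in "-like" rests on these markers and, for shallow clusters, on depth. A limit on the parietal list, which bounds the podocyte-like class, was set after Aldh1a1 had been seen to lead a cluster, as given below. The library of tdT+ cells was 91.0% podocyte-like, and podocyte-like cells were 55.0% of Sham and 57.7% of IRI24h-TDN. Pairs of libraries shared 102 to 114 barcodes, and 0 of the shared barcodes had equal counts. All levels are UMIs of the gene per 1000000 UMIs of the class (CPM), with exact Poisson 95% intervals in brackets or exact binomial intervals for shares of cells. These intervals cover counting error only. Rbp4 has no row in the IRI24h-TD table and was not analysed in that library.

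The classes that matter most here are as follows. PEC-like cells (517) carried parietal markers such as Tnc, Cp and Akap12. PEC+PTEC-like cells (787) carried parietal and proximal tubular (PTEC) markers together and came from the 3 libraries in numbers of 398, 187 and 202. A class with podocyte genes and a raised parietal list, called PEC+podocyte-gene here, held 592 cells, of which 7.43% had one of the top 6% of doublet scores against 1.27% of PEC+PTEC-like and 0.58% of PEC-like cells. Its lower limit on the parietal list, 1000 CPM, was set after a cluster led by Aldh1a1 and Dkk3 had been seen, and results that turn on this limit are given with a limit of 2000 CPM beside them. PTEC-like cells (1165) came mostly from Sham (996, 105 and 64 by library). The fibroblast-like class (252 cells) also held parietal markers at 5767 CPM and podocyte markers at 5064 CPM, so it was not a pure class. By library its fibroblast markers summed to 5574, 31398 and 1916 CPM. Its parietal markers summed to 6786, 2502 and 8533 CPM and its podocyte markers to 4889, 1978 and 10594 CPM. Fibroblast markers were thus the highest of these lists only in IRI24h-TDN, with 43 cells. The endothelial-like class (310 cells, at a median of 2950.5 UMIs) held podocyte markers at 10997 CPM, against 38829 CPM in podocyte-like cells. Levels in endothelial-like cells are therefore also not those of a pure class.

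Each gene had its own pattern over the classes. Over all libraries together Aldh1a2 was highest in PEC-like cells, Aldh1a1 in PEC+podocyte-gene cells and Stra6 in PEC+PTEC-like cells. On the same sums Rbp4 was highest in fibroblast-like cells and Dhrs3 in PTEC-like cells. The receptors Rara and Rarb had UMIs in all 15 classes, as did Aldh1a2 and Dhrs3. UMIs were counted at one end of each transcript, so levels are compared here between cells for 1 gene and not between genes.

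**Figure D1:**
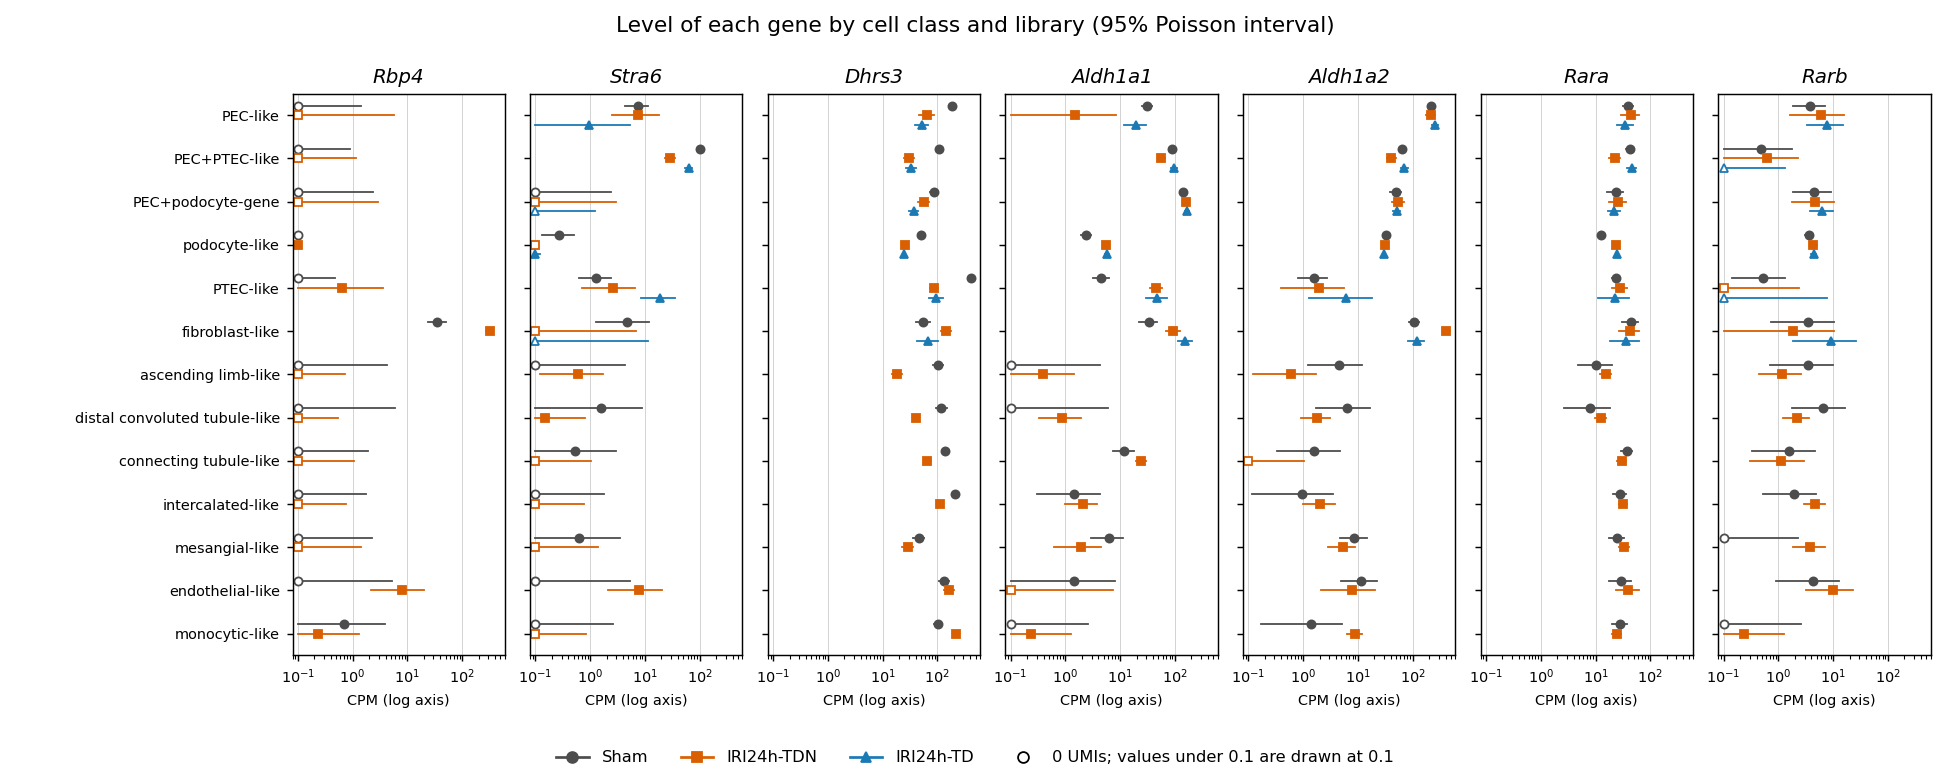
Levels of the 7 retinoic acid pathway genes (CPM, log axis) in 13 cell classes, with a point per library (Sham, IRI24h-TDN, IRI24h-TD) and bars for the 95% Poisson interval. Classes with under 30 cells in a library are left out, open symbols mark 0 UMIs, values under 0.1 are drawn at 0.1, and Rbp4 is not drawn for IRI24h-TD. Aldh1a2 is at 213 to 260 CPM in PEC-like cells, under the 415 CPM of the fibroblast-like class in IRI24h-TDN, and Stra6 is at 29.2 to 99.3 CPM in PEC+PTEC-like cells, while Rara is between 12.1 and 41.8 CPM in every class over all libraries.

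DNA sequence was examined upstream of the genes because Rarb is a known direct target of retinoic acid receptors and because a paralogous neighbour, Aldh1a7, moved with Aldh1a1 in PTEC-like cells. Direct repeats of the half-sites AGGTCA or AGTTCA or GGGTCA or GGTTCA, spaced by 1, 2 or 5 bases, were searched on both strands of 300 bases around RefSeq transcript starts (GRCm38.p6, 250 bases before to 50 after). All 7 genes were matched, with 17 start sites. Among them Rarb alone held such a repeat, while 2 of the 41 matched other retinoid genes did, the breakdown enzyme gene Cyp26a1 and the carotene-cleaving Bco1. Across 32851 promoters 0.588% held a repeat of any of these spacings and 0.0974% one with spacing 5. The 250 bases before the start are shown for Rarb (chr14:16575477-16575726, minus strand) and Cyp26a1 (chr19:37697558-37697807, plus strand), the genes with spacing 5, with the half-sites in capitals. The Rarb start used here lies inside the gene span (chr14:16430839-16819156). Both lines read 5′ to 3′ on the strand of the gene. In Rarb the repeat, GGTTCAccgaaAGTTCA, lay 53 to 37 bases before the start on the strand of the gene, and in Cyp26a1 it lay 32 to 16 bases before the start on the opposite strand, so that its capitals read as the reverse complement.
Rarb: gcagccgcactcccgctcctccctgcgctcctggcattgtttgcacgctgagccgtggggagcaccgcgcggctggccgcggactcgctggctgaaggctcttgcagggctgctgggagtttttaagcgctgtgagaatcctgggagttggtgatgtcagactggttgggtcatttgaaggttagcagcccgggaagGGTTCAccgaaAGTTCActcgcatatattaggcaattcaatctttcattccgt
Cyp26a1: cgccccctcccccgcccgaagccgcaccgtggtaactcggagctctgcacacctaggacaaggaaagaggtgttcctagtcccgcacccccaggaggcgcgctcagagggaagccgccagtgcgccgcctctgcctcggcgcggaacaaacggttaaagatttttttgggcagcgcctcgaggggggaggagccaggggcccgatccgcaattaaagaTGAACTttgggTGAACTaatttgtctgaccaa
A match of letters is a description and not evidence that the receptor binds there.

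For Aldh1a1 (chr19:20601718-20601967, plus strand) and its paralogue Aldh1a7 (chr19:20727557-20727806, minus strand) the 250 bases before the start are shown because both genes had a higher CPM in PTEC-like cells after severe IRI. The Aldh1a1 start used here is the most downstream of those matched and lies inside the gene span (chr19:20492715-20643465). Capitals mark the longest run that the pair shares, 65 bases, from 94 to 30 bases before the start of each gene. Over 240 aligned bases the pair was 73.3% identical.
Aldh1a1: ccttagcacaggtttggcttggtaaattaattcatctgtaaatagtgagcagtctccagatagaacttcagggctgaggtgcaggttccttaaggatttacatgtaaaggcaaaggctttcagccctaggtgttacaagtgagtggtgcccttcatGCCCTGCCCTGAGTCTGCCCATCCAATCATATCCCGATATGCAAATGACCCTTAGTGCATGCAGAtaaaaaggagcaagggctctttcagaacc
Aldh1a7: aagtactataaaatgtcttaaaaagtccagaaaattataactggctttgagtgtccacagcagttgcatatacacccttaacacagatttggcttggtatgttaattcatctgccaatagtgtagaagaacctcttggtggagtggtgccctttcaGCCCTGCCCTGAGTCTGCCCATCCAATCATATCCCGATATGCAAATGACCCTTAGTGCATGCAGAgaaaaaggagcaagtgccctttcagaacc
The genes lie 49.5 kb apart on chromosome 19. Their transcripts were 83.1% identical over the last 400 bases, with 0 of 351 windows of 50 bases in common there and 151 of 2309 over the whole Aldh1a1 transcript. Reads from the shared windows could have been counted for either gene, so the split between Aldh1a1 and Aldh1a7 is uncertain.

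Rbp4 (chr19:38116629-38125281), the plasma carrier of retinol, was nearly confined to the fibroblast-like class, which held 95.8% of its 212 UMIs. It had 30 UMIs there in Sham, 35.5 CPM (23.9-50.6), and 173 in IRI24h-TDN, 318 CPM (272-369). The level was thus 8.97-fold higher in IRI24h-TDN, a log2 difference of 3.17 (2.60 to 3.78). The share of cells with an Rbp4 UMI was 3.95% in Sham and 60.5% in IRI24h-TDN, at medians of 4213 and 12027 UMIs per cell, and 5.04% and 38.1% after thinning to 2400 UMIs. The class did not hold the same cells in both libraries, since its fibroblast markers summed to 5574 CPM in Sham and 31398 CPM in IRI24h-TDN, and the part of this difference in the Rbp4 level was not tested. Clustered without correction between libraries, the class held 6, 39 and 1 cells by library, and the direction turned, with Rbp4 at 492 CPM (30 UMIs) in Sham and 335 CPM in IRI24h-TDN, a log2 difference of -0.55. No Rbp4 UMI was seen in 322 PEC-like cells of Sham and 78 of IRI24h-TDN. This allows shares of cells with a UMI of up to 0.93% and 3.85% (3 cells each). In podocyte-like cells of these libraries, 4422 and 5206 cells, 1 UMI was seen.

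Stra6 (chr9:58063788-58153996), the cell-surface receptor that takes up retinol from RBP4, was a gene of PEC+PTEC-like cells, which held 85.9% of its 788 UMIs. Its level there was 99.3 CPM (89.9-109) in Sham against 29.2 (23.6-35.8) in IRI24h-TDN and 63.0 (54.0-73.1) in IRI24h-TD. From high to low the order was Sham, then IRI24h-TD, then IRI24h-TDN, with no overlap of intervals. Over all libraries 22.6% (19.7-25.7) of PEC+PTEC-like cells had a Stra6 UMI, against 2.90% of PEC-like, 1.03% of PTEC-like and 0.0705% of podocyte-like cells, at medians of 11202, 7204, 6614 and 9118.5 UMIs. Thinned to 2400 UMIs these shares were 9.97%, 2.02%, 0.511% and 0.00564%. PEC+podocyte-gene cells had 0 UMIs of Stra6 in 592 cells, which allows a share of cells with a UMI of up to 0.507% (3 cells). Within the PEC+PTEC-like class, the subcluster led by Sox9, Gc and C3 (230 cells) had Stra6 at 133, 41.6 and 101 CPM by library, whereas the subcluster with the injury gene Havcr1 and Krt20 (95 cells, 53 of them from IRI24h-TDN) had 33.7, 9.45 and 19.7 CPM. Stra6 was low in the subcluster that IRI24h-TDN contributed most to, and lower in IRI24h-TDN in both subclusters.

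Aldh1a2 (chr9:71215789-71296243), which encodes the retinaldehyde dehydrogenase needed for embryonic retinoic acid, had its highest level over all libraries in PEC-like cells. PEC-like cells had 216 CPM (198-234) in Sham against 213 (179-251) in IRI24h-TDN and 260 (230-293) in IRI24h-TD. Intervals of the 3 libraries overlapped, and Sham and IRI24h-TDN differed by a log2 of -0.02 (-0.30 to 0.25). A UMI of Aldh1a2 was found in 57.4% (53.1-61.8) of PEC-like cells and 34.4% after thinning, against 1.55% and 0.409% of PTEC-like cells, where 1.85 CPM (1.09-2.92) was measured. The fibroblast-like class had 206 CPM over all libraries, with 106 (85.5-131), 415 (363-473) and 118 (83.9-161) by library, and a single cell gave 17.5% of its Aldh1a2 UMIs. It thus lay below PEC-like cells in Sham and IRI24h-TD and above them in IRI24h-TDN, where it had 43 cells. All further classes lay at 58.9 CPM or below over all libraries, among them PEC+PTEC-like cells at 65.1, 41.1 and 70.6 CPM and PEC+podocyte-gene cells at 49.8, 53.9 and 51.0 CPM by library.

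Podocyte-like cells held 68.0% of all Aldh1a2 UMIs as the largest class, at a level of 33.0 CPM (31.1-34.9) in Sham against 31.3 (29.7-32.9) in IRI24h-TDN and 30.2 (29.0-31.4) in IRI24h-TD. Parietal markers in podocyte-like cells stood at 1.55% to 2.16% of their level in PEC-like cells. Aldh1a2 carried over in the same proportion would come to 3.29 to 4.67 CPM. Scaled from PEC+podocyte-gene cells instead, it would come to 3.60, 7.94 and 11.4 CPM. These values lay below the measured level in each library, and the part of carried-over RNA was not tested.

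Aldh1a1 (chr19:20492715-20643465), which encodes another retinaldehyde dehydrogenase, had a different map. PEC+podocyte-gene cells were highest with 142 CPM (124-162) in Sham against 160 (139-184) in IRI24h-TDN and 165 (151-180) in IRI24h-TD. In podocyte-like cells the gene was at 2.40 CPM (1.93-2.95), 5.6 (4.96-6.29) and 5.80 (5.30-6.34). PEC+podocyte-gene cells were thus 31.6-fold higher than podocyte-like cells over all libraries, a log2 difference of 4.98 (4.85 to 5.12), and 5.89, 4.84 and 4.83 within the libraries. Because Aldh1a1 led a cluster whose placing in this class was decided with that known, this contrast is a description. With the limit of 2000 CPM the class held 156 cells and had Aldh1a1 at 152 CPM, and podocyte-like cells then had 8.95 CPM. Without correction between libraries it held 186 cells of Sham, with Aldh1a1 at 107 CPM, 2 cells of IRI24h-TD and no cell of IRI24h-TDN, so its levels after IRI depend on that correction. PEC+PTEC-like cells had 87.1, 56.6 and 95.6 CPM and overlapped with the fibroblast-like class, in which 1 cell gave 34.9% of the Aldh1a1 UMIs.

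In PEC-like cells Aldh1a1 was lower and uneven. It had 81 UMIs in Sham, 31.2 CPM (24.8-38.8), 1 UMI in IRI24h-TDN, 1.52 CPM (0.0385-8.47), and 20 UMIs in IRI24h-TD, 19.4 CPM (11.9-30). The PEC-like subclusters split the pair of synthesis genes. The subcluster led by Tnc and Cp (276 cells) had Aldh1a2 at 306 CPM (286-328) and Aldh1a1 at 6.93 CPM (4.17-10.8). The subcluster led by Clstn2 and Cpe (241 cells) had Aldh1a2 at 83.1 CPM (69.3-98.8) and Aldh1a1 at 53.9 CPM (42.9-66.8). Their podocyte markers summed to 776 and 2622 CPM, and the part of this in the split was not tested.

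In the Tnc and Cp subcluster 11 cells had UMIs of both genes, 213 of Aldh1a2 alone and 0 of Aldh1a1 alone, while in the Clstn2 and Cpe subcluster 17 had both, 56 Aldh1a2 alone and 23 Aldh1a1 alone. An Aldh1a1 UMI was found in 4.91% of cells with an Aldh1a2 UMI against 0% of those without in the former, and in 23.3% against 13.7% in the latter. Aldh1a1 alone was the most common kind of cell with a UMI in PEC+podocyte-gene cells, with 169 cells against 96 with Aldh1a2 alone and 64 with both, and an Aldh1a1 UMI was found in 40% of cells with an Aldh1a2 UMI against 39.1% of those without. In PEC+PTEC-like cells the same kinds held 197, 164 and 64 cells, and the shares went the other way, 28.1% with an Aldh1a2 UMI against 35.2% without. They were 22.9% and 42.4% in the Sox9, Gc and C3 subcluster and 9.43% and 10.45% in the whole PEC-like class. Counts were not thinned for these shares. In the subcluster of PEC+PTEC-like cells with the highest proximal marker sum among those over 100 cells (146 cells, led by Spink1 and Wfdc16), Aldh1a1 was at 115 CPM (100-131) and Aldh1a2 at 19.8 CPM (14-27.1), whereas the Sox9, Gc and C3 subcluster had 82.1 and 84.7 CPM.

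**Figure D2:**
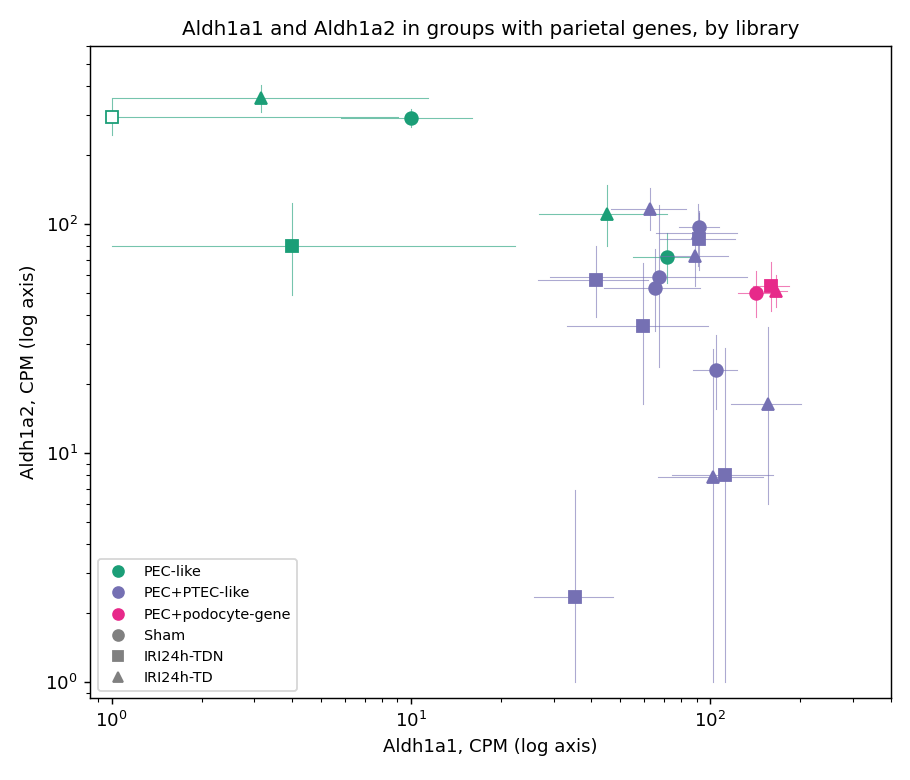
Aldh1a1 against Aldh1a2 (CPM, both axes log) in subclusters of PEC-like and PEC+PTEC-like cells with at least 15 cells in a library and in the PEC+podocyte-gene class, with a symbol per library. Values under 1 are drawn at 1 and open symbols mark 0 UMIs of Aldh1a1. The Tnc and Cp subcluster lies at the Aldh1a2 end, 291 to 354 CPM, with Aldh1a1 at 0 to 9.99 CPM, and the PEC+podocyte-gene class at the Aldh1a1 end, 142 to 165 CPM.

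Dhrs3 (chr4:144892827-144928209) encodes the retinal reductase that returns retinal to retinol and is itself known to be induced by retinoic acid. Over all libraries it was highest in PTEC-like cells at 338 CPM (327-350), followed by monocytic-like cells at 188 CPM (177-200). Endothelial-like, intercalated-like and PEC-like cells, at 144, 138 and 134 CPM, overlapped with their neighbours in the order. In IRI24h-TDN alone the order differed, with 215 CPM in monocytic-like and 88.6 CPM in PTEC-like cells. In Sham the level was 404 CPM (390-418) in PTEC-like, 185 (169-202) in PEC-like, 106 (95.9-116) in PEC+PTEC-like and 50.9 (48.6-53.2) in podocyte-like cells. The proximal marker list in podocyte-like cells of Sham stood at 0.667% of its level in PTEC-like cells, a proportion at which Dhrs3 would come to 2.70 CPM. Podocyte-like cells had Dhrs3 UMIs in 19.4% of cells and PTEC-like cells in 67.7%, or 6.59% and 49.1% after thinning.

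Rara (chr11:98927818-98974942), encoding retinoic acid receptor alpha, ranged from 12.1 CPM in distal convoluted tubule-like to 41.8 CPM in fibroblast-like cells, and every class overlapped with the next in the order. Its level was 39.3, 44.1 and 34.9 CPM in PEC-like cells, 42.7, 22.7 and 46.0 in PEC+PTEC-like and 23.2, 27.6 and 22.6 in PTEC-like cells. Rarb (chr14:16430839-16819156), encoding retinoic acid receptor beta, was sparse, with 883 UMIs in 775 cells, of which podocyte-like cells held 81.2%. Podocyte-like cells had Rarb at 3.61, 4.35 and 4.38 CPM and PEC+podocyte-gene cells at 4.53, 4.75 and 6.29 CPM, whereas PTEC-like and PEC+PTEC-like cells had 4 UMIs each over all libraries. Over all libraries it was highest in endothelial-like cells at 6.50 CPM (2.81-12.8), from 8 UMIs, followed by PEC+podocyte-gene cells at 5.49, PEC-like at 5.14 (3.22-7.78), podocyte-like at 4.20, fibroblast-like at 4.07 and intercalated-like cells at 3.80 CPM. At the low end stood PEC+PTEC-like cells at 0.396 CPM (0.108-1.01) and monocytic-like cells at 0.171 CPM, and each class overlapped with the next in the order.

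Comparisons between classes were read with a limit of 2-fold, for genes with at least 25 UMIs in the higher class. Of the 5 members that could be read between PEC-like and podocyte-like cells, 4 were higher and 0 lower in PEC-like cells, beside 32.0% of 11947 genes that were 2-fold apart, 23.6% higher and 8.41% lower. The log2 differences were 2.86 (2.76 to 2.96) for Aldh1a2, 2.25 (1.94 to 2.55) for Aldh1a1, 2.13 (2.0 to 2.26) for Dhrs3 and 6.15 (5.15 to 7.21) for Stra6, the last from 25 against 14 UMIs, while Rara differed by 0.83 (0.60 to 1.06). The median over the 5 members was 2.25 and over all genes 0.22. The members had been selected on these levels, so this count and median are a description. Rarb, with 22 UMIs in PEC-like and 717 in podocyte-like cells, was left out by the limit of 25 UMIs, which Stra6 just met. With scaling by TMM the median of all genes in this comparison moved by 0.38. Within the libraries 4 of 4, 2 of 4 and 2 of 3 members were 2-fold higher, beside 19.6%, 21.7% and 21.8% of genes. Aldh1a2 and Dhrs3 were among them in each library, whereas Aldh1a1 was 3.70 log2 units higher in Sham but at -1.88 (-7.19 to 0.61) in IRI24h-TDN. With the limit of 2000 CPM on the parietal list Aldh1a1 differed by 1.41, and with 4000 variable genes in the clustering by 0.44, under the limit.

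PEC+PTEC-like cells set against PEC-like cells had Aldh1a1 and Stra6 higher and Aldh1a2 and Dhrs3 lower, 4 of 5 members beside 29.7% of 11752 genes, 15.9% higher and 13.8% lower. The log2 differences were 1.74 (1.44 to 2.06) for Aldh1a1, 3.52 (2.95 to 4.16) for Stra6, -1.94 (-2.09 to -1.79) for Aldh1a2 and -1.12 (-1.28 to -0.95) for Dhrs3, and Rara differed by -0.07. Dhrs3 stayed under 2-fold in 5 alternatives, with -0.73 as the least. Within the libraries Aldh1a1 and Stra6 were 2-fold higher and Aldh1a2 2-fold lower in all 3, and 3, 4 and 3 of 5 members were called, beside 27.3%, 31.7% and 27.4% of genes. Against PTEC-like cells, the same class had 3 members higher and 1 lower of 5, beside 38.8% of 11990 genes, 30.2% higher and 8.59% lower. Aldh1a2 was higher by 5.0 (4.32 to 5.76), Stra6 by 4.83 (4.23 to 5.50) and Aldh1a1 by 2.60 (2.33 to 2.88), and Dhrs3 differed by -2.45 (-2.58 to -2.33). The TMM shift of all genes was 0.52 here. Aldh1a1 depended on the library, with 4.26 within Sham and 0.33 (-0.07 to 0.75) within IRI24h-TDN. PEC+PTEC-like cells thus lay between PEC-like and PTEC-like cells for Aldh1a2, and above both for Aldh1a1 and Stra6.

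After severe IRI Dhrs3 was lower in tubular, parietal and podocyte classes alike. It was lower in IRI24h-TDN than in Sham in 10 of the 13 classes in which it could be read, with a median log2 difference of -0.99, and of 1994 genes that could be read in 13 classes 19.6% were lower in 10 or more. The level went from 404 CPM (390-418) to 88.6 (74.5-105) in PTEC-like cells, 4.56-fold lower, and from 185 (169-202) to 63.9 (46.0-86.3) in PEC-like cells. It went from 102 to 18.1 CPM in ascending limb-like, from 119 to 41.5 in distal convoluted tubule-like, from 106 to 30.5 in PEC+PTEC-like, from 136 to 66.0 in connecting tubule-like and from 50.9 to 25.6 CPM in podocyte-like cells. Of these, podocyte-like cells missed the 2-fold limit narrowly. The IRI24h-TD library had 96.4, 51.4, 33.3 and 24.7 CPM in PTEC-like, PEC-like, PEC+PTEC-like and podocyte-like cells, all nearer to IRI24h-TDN than to Sham. Dhrs3 was higher in IRI24h-TDN in the remaining classes, from 102 (86.1-120) to 215 CPM (202-230) in monocytic-like, from 55.5 to 145 in fibroblast-like and from 133 to 166 in endothelial-like cells. Proximal markers carried over into monocytic-like cells would have brought 18.2 CPM of Dhrs3 in Sham and 16.7 in IRI24h-TDN.

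Aldh1a1 was higher after severe IRI in some classes and lower in others. In PTEC-like cells it had 35 UMIs in Sham, 4.54 CPM (3.16-6.32), 70 in IRI24h-TDN, 45.0 (35-56.8), and 23 in IRI24h-TD, 47.2 (29.9-70.8). IRI24h-TDN was 9.90-fold higher than Sham, a log2 difference of 3.31 (2.70 to 3.94). It was 2.72 with 4000 variable genes and 2.42 with thinned counts, both from under 25 UMIs in the higher library and thus not called, and 4.75 without the top 1% of cells. Without correction between libraries the class held 994, 5 and 0 cells by library, with 1 Aldh1a1 UMI in IRI24h-TDN, and could not be read. In this class 3 members could be read, with 1 higher and 1 lower beside 28.0% of 9178 genes, 11.9% higher and 16.1% lower. The PTEC-like class itself differed between the libraries, since proximal markers summed to 22953, 8244 and 8959 CPM, parietal markers to 195, 959 and 1593 CPM and the injured tubule genes Havcr1, Lcn2 and Krt20 to 6.49, 2501 and 2047 CPM, and their part in the Aldh1a1 and Dhrs3 levels was not tested. The PTEC-like cells of IRI24h-TD were shallow, with a median of 1147.5 UMIs. In PEC-like cells Aldh1a1 was lower in IRI24h-TDN with a log2 difference of -4.36 (-9.68 to -1.84), from 1 against 81 UMIs. Counted with a floor of 3 UMIs it was -2.77, and with other clusterings it no longer passed, with -1.0 at resolution 0.5 and -0.43 with 4000 variable genes. With parietal markers required in 40% of the cells of a subcluster instead of 25%, an alternative chosen after seeing the data, the sign turned, with 36.5 CPM in Sham and 42.4 CPM (51 UMIs) in IRI24h-TDN, a log2 difference of 0.22. Dhrs3 was lower with -1.53 (-2.03 to -1.08), so that 2 of 4 members were lower and 0 higher, beside 14% of 7912 genes, 2.97% higher and 11% lower. PEC-like cells of IRI24h-TD, with 19.4 CPM, did not share the low Aldh1a1 level of IRI24h-TDN, and PEC+podocyte-gene cells differed by 0.17 (-0.11 to 0.45).

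In podocyte-like cells 1 of 5 members passed 2-fold, Aldh1a1 with 1.22 (0.87 to 1.58), beside 13.4% of 12287 genes, 5.1% higher and 8.26% lower. Rara was higher by 0.95 (0.79 to 1.11), from 12.3 CPM (11.2-13.5) in Sham to 23.8 (22.5-25.2) in IRI24h-TDN and 24.9 (23.9-26.0) in IRI24h-TD, and Dhrs3 differed by -0.99 (-1.09 to -0.89), both just inside the limit. Aldh1a2 differed by -0.08 (-0.18 to 0.03) and Rarb by 0.27 (-0.05 to 0.59). With a limit of 2000 CPM on the parietal list the Aldh1a1 difference was 0.59 and with thinned counts 0.65, neither of which passed, whereas it was 1.70 without the top doublet scores, 2.54 without correction between libraries and 2.77 without the top 1% of cells. Thinned to 2400 UMIs, the share of podocyte-like cells with an Aldh1a1 UMI was 0.51%, 0.807% and 0.804% by library.

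The podocyte-like clusters showed where the Aldh1a1 UMIs lay. Clusters 0 and 1 (4512 and 3664 cells) had 0.606 and 0.674 CPM, while cluster 2 (3549 cells, led by Smyd1 and Slc26a7) had 8.57 and cluster 3 (3359 cells, led by Enc1, Angptl7 and Cdsn) 9.43 CPM. Cluster 2 had 13 UMIs in Sham, 1.33 CPM, 109 in IRI24h-TDN, 11 CPM, and 186 in IRI24h-TD, 11.4 CPM. Cluster 3 did not follow, with 12.1, 8.88 and 9.06 CPM. Cluster 3 held 541 of 4422 podocyte-like cells in Sham and 1014 of 5206 in IRI24h-TDN, so that both its share and the level within cluster 2 differed between the libraries. From Sham to IRI24h-TDN Aldh1a1 also went from 0.95 CPM (2 UMIs) to 8.40 CPM (47 UMIs) in cluster 4. Cluster 5 went from 1.03 CPM (1 UMI) to 4.89 CPM (8 UMIs). In each of clusters 0 to 5 Dhrs3 was lower and Rara higher after severe IRI (IRI24h-TDN over Sham), for example 67.7 against 21.3 CPM of Dhrs3 in cluster 3 and 13 against 28.0 CPM of Rara in cluster 0, with the least for Rara in cluster 4, 11.4 against 13.6 CPM. Parietal markers carried over from PEC-like cells would bring under 1 CPM of Aldh1a1 into podocyte-like cells, whereas scaled from PEC+podocyte-gene cells they would bring 10.3, 23.6 and 37.1 CPM, more than was measured.

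PEC+PTEC-like and fibroblast-like cells completed the comparison. In PEC+PTEC-like cells Stra6 was lower in IRI24h-TDN with -1.76 (-2.10 to -1.44) and Dhrs3 with -1.79 (-2.12 to -1.47), 2 of 5 members beside 21.6% of genes apart and 13.8% lower, while Rara, Aldh1a2 and Aldh1a1 differed by -0.91, -0.66 and -0.62. Both comparisons were chosen after values had been seen. This class held proximal markers at 8663 CPM in Sham and 2374 CPM in IRI24h-TDN and injured tubule genes at 30.3 and 2213 CPM, and their part was not tested. In fibroblast-like cells 4 of 5 members were higher in IRI24h-TDN, Rbp4 by 3.17, Aldh1a2 by 1.97 (1.61 to 2.33), Aldh1a1 by 1.47 (0.78 to 2.20) and Dhrs3 by 1.39 (0.85 to 1.94), beside 32.8% of genes apart and 10.9% higher. Without correction between libraries Rbp4 turned, as given above, and Aldh1a1 differed by 0.03. Monocytic-like cells had Aldh1a2 at 1.40 CPM (2 UMIs) in Sham and 8.76 CPM (38 UMIs) in IRI24h-TDN.

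**Figure D3:**
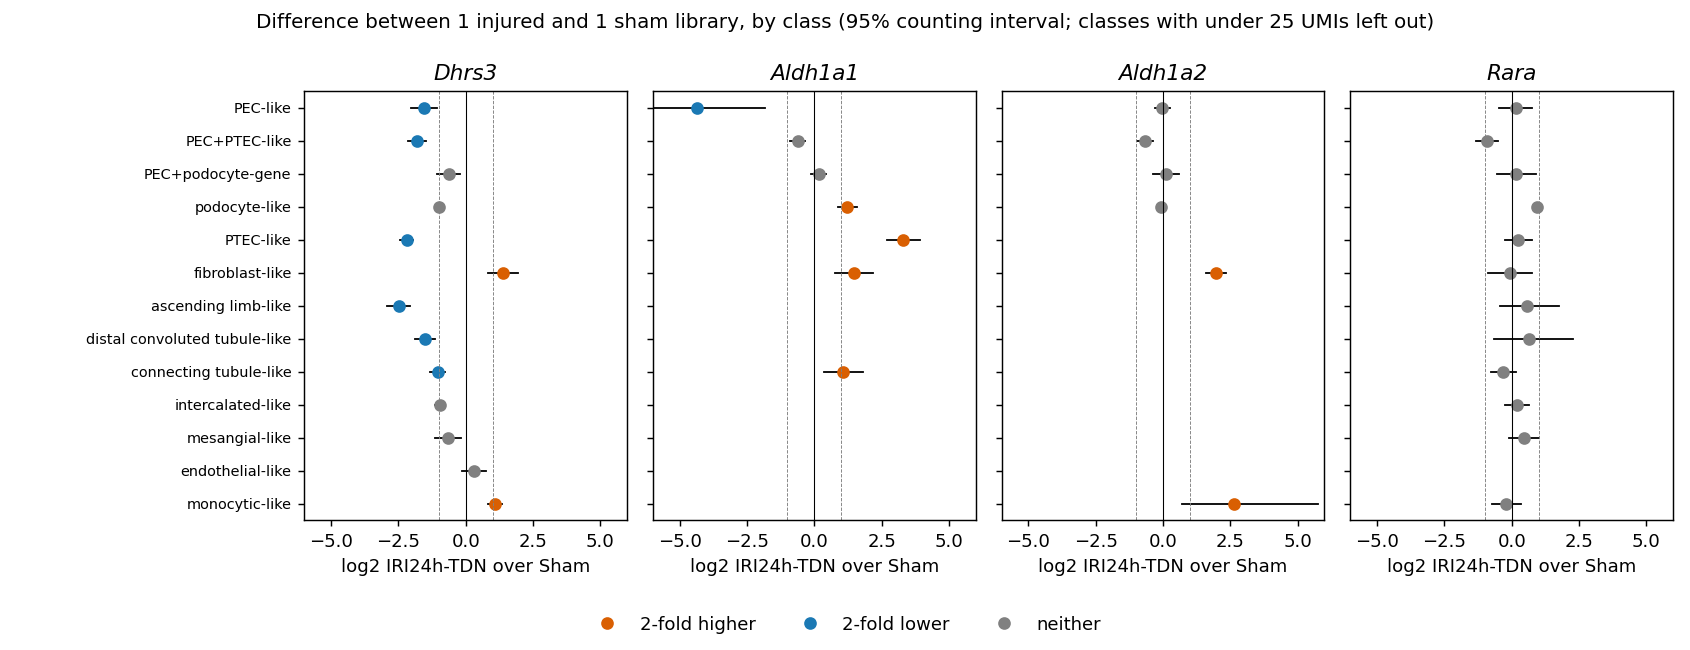
Log2 difference of IRI24h-TDN over Sham for Dhrs3, Aldh1a1, Aldh1a2 and Rara across 13 cell classes, with counting intervals clipped at 6 log2 units either way. Orange marks classes at least 2-fold higher in IRI24h-TDN, blue at least 2-fold lower, grey neither, and dashed lines the 2-fold limits. Dhrs3 is lower in PTEC-like (-2.19), PEC-like (-1.53) and ascending limb-like (-2.49) cells and higher in fibroblast-like (1.39) and monocytic-like (1.08) cells, and Aldh1a1 is 3.31 higher in PTEC-like and 4.36 lower in PEC-like cells, the last from 1 UMI.

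The sort was read from the libraries of the same time after IRI. Between IRI24h-TD and IRI24h-TDN, 0 of 3 members in PEC-like cells and 0 of 5 in podocyte-like cells were 2-fold apart, beside 3.3% of 6308 and 2.22% of 12282 genes. In podocyte-like cells the 5 log2 differences lay between -0.05 and 0.07. In PEC-like cells Aldh1a2 differed by 0.29 (-0.01 to 0.59), Dhrs3 by -0.31 (-0.92 to 0.31) and Rara by -0.34 (-1.08 to 0.42), and Aldh1a1 had too few UMIs, 20 and 1, to be read. In PEC+PTEC-like cells, a comparison added after the levels had been seen, 2 of 5 members were 2-fold higher in IRI24h-TD, beside 5.08% of 9693 genes apart and 2.94% higher. Stra6 was higher by 1.11 (0.74 to 1.49), from 29.2 to 63.0 CPM, and Rara by 1.02 (0.59 to 1.45), from 22.7 to 46.0 CPM, while Aldh1a2, Aldh1a1 and Dhrs3 differed by 0.78, 0.76 and 0.13. Both lay near the limit, and neither passed it with at least 500 genes per cell, at most 25% mitochondrial UMIs or thinned counts, where Stra6 differed by 0.97, 0.78 and 0.64 and Rara by 0.95, 0.96 and 0.40.

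The other retinoid genes, a list of 56 genes of transport, storage, oxidation, breakdown, binding, receptors and targets, were read in the same comparisons. Of 33 that could be read between PEC-like and podocyte-like cells, 10 were 2-fold higher and 4 lower in PEC-like cells. Beside these stood 23.6% and 8.41% of all genes. The breakdown enzymes took opposite sides, since Cyp26b1 was at 126, 24.3 and 48.5 CPM in PEC-like cells and at 0.264 CPM in podocyte-like cells, while Cyp26a1 was at 34.5, 21.8 and 22.7 CPM in podocyte-like cells and had 5 UMIs in PEC-like cells. Cyp26b1 followed Aldh1a2 among PEC-like subclusters, with 140 CPM in the Tnc and Cp subcluster and 5.19 CPM in the Clstn2 and Cpe subcluster. The dehydrogenases that act on retinol also took opposite sides over all libraries, with Rdh10 higher by a log2 of 1.74 in PEC-like cells and Rdh1 at 168 CPM in podocyte-like against 4.20 CPM in PEC-like cells. Within the libraries Rdh1 was called in each, whereas Rdh10 was called in IRI24h-TDN and IRI24h-TD but not in Sham. Of the known retinoic acid targets on the list, Tgm2, Rarres2 and Hoxb5 were higher in PEC-like cells by 6.85, 3.57 and 3.15 and Rarres1 was lower with a log2 difference of -3.52. Within the libraries Tgm2, Hoxb5 and Rarres1 were called in each, and Rarres2 in Sham only.

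In the 4 largest podocyte-like clusters Cyp26a1 was lower where Aldh1a1 was higher. Cyp26a1 was at 38.4 and 37.6 CPM in clusters 0 and 1, in which Aldh1a1 was at 0.606 and 0.674 CPM, and at 15 and 13.3 CPM in clusters 2 and 3, in which Aldh1a1 was at 8.57 and 9.43 CPM. The smaller clusters did not keep this order, since Cyp26a1 was at 26.8 CPM in cluster 5 with Aldh1a1 at 6.07 CPM, at 17.5 in cluster 21 (291 cells) with Aldh1a1 at 2.44, and had 1 UMI in cluster 31 (24 cells) with none of Aldh1a1. In cluster 4 (1714 cells, led by Hspa1b) Cyp26a1 was at 42.8 CPM in Sham and 14.3 CPM in IRI24h-TDN, and Aldh1a1 at 0.95 CPM (2 UMIs) and 8.40 CPM (47 UMIs). Neither gene took part in the clustering, and no test was run on the clusters.

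Between PEC+PTEC-like and PEC-like cells 13 of 36 other retinoid genes were higher and 5 lower, beside 15.9% and 13.8% of all genes. Against PTEC-like cells 8 of 39 were higher and 11 lower, beside 30.2% and 8.59% of all genes. The megalin gene Lrp2 was at 558 CPM in PEC+PTEC-like cells, above PEC-like cells (147 CPM) and below PTEC-like cells (2391 CPM). Transthyretin, the partner of RBP4 in plasma, was at 223, 56.3 and 35.1 CPM of Ttr in PEC+PTEC-like cells and at 1.17 CPM in PEC-like cells. Cyp26b1 had 71 UMIs in PEC+PTEC-like cells of Sham and 0 in IRI24h-TDN and IRI24h-TD.

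After severe IRI (IRI24h-TDN over Sham) the other retinoid genes went 2 higher and 4 lower of 24 in PEC-like cells. They went 0 higher and 8 lower of 37 in podocyte-like cells and 4 higher and 10 lower of 32 in PTEC-like cells. Beside these stood 2.97% higher and 11% lower of all genes in PEC-like cells. The shares of all genes were 5.1% and 8.26% in podocyte-like cells and 11.9% and 16.1% in PTEC-like cells. In PEC-like cells Rdh10, the main retinol dehydrogenase of the embryo, was at 54.7 CPM in Sham against 196 in IRI24h-TDN and 146 in IRI24h-TD. On the other side stood Cyp26b1 with a log2 difference of -2.37, Rarres2 with -3.23, Adh1 with -3.11 (1 against 34 UMIs) and Rxrb with -1.72. In PTEC-like cells Aldh1a7 was at 7.14, 141 and 98.4 CPM, while Adh1 was at 1077, 207 and 172 CPM and Lrp2 at 2873, 584 and 550 CPM. Aldh1a7 was close to absent from PEC-like cells, with 1 UMI, and in PEC+PTEC-like cells it was at 41.5, 35.1 and 33.0 CPM. The genes lower in podocyte-like cells included Lrp2, Ttr and Adh1, with log2 differences of -4.81, -4.84 and -4.44, and the proximal marker list in podocyte-like cells stood at 153 CPM in Sham and 13 CPM in IRI24h-TDN, a difference whose part in these values was not tested. Between IRI24h-TD and IRI24h-TDN, 0 of 18 in PEC-like and 0 of 34 in podocyte-like cells were 2-fold apart, beside 3.3% and 2.22% of all genes.

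Of the paralogues, Rarg, encoding retinoic acid receptor gamma, was highest in endothelial-like cells at 142 CPM and was at 41.2, 27.4 and 48.5 CPM in PEC-like and 7.03 CPM in PEC+PTEC-like cells. Aldh1a3 was at 22.5, 64.3 and 33.3 CPM in fibroblast-like cells and 10.8 CPM in PEC+podocyte-gene cells.

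**Figure D4:**
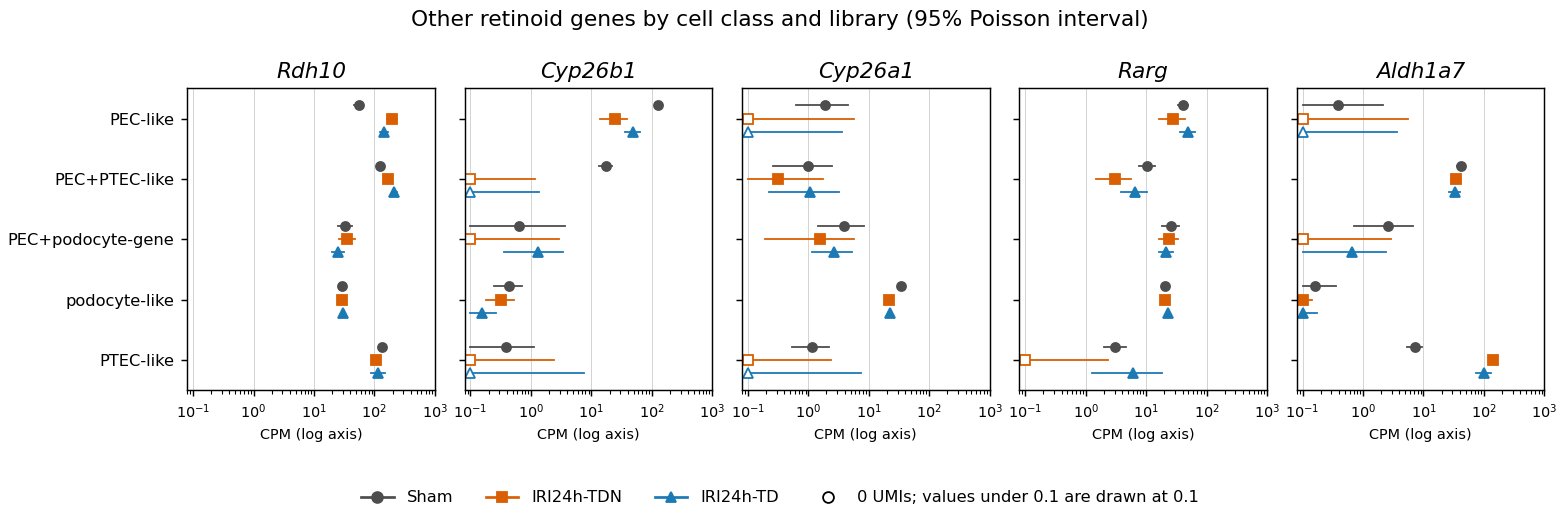
Levels of Rdh10, Cyp26b1, Cyp26a1, Rarg and Aldh1a7 (CPM) in 5 cell classes, with a symbol per library and 95% Poisson intervals. Cyp26b1 is high in PEC-like cells of Sham (126 CPM) and Cyp26a1 in podocyte-like cells (21.8 to 34.5 CPM), and Aldh1a7 is at 7.14 CPM in PTEC-like cells of Sham and at 141 and 98.4 CPM after severe IRI.

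Genes of like pattern were sought over 32 groups, each a class in a library with at least 50 cells, by Pearson's r of log2(CPM + 5). The groups share libraries and depth, so r is a description. For Rbp4 the groups of IRI24h-TD, where it has no row, entered with 0 UMIs. Aldh1a2 was followed most closely by Ncam1, which is one of the parietal markers, with r = 0.93, and St8sia2, A730017C20Rik and Cyp1b1 were also among the closest, with 0.92 to 0.89. Stra6 was followed by Nlrp10, Ubd, Pla2g12b, Defb36 and Unc5cl, with r from 0.92 to 0.88, and Rbp4 by Dio2, C7, Hhip, Fbln1 and Gabra3, with r from 0.94 to 0.86. For Aldh1a1 the closest were Iyd with 0.80, then 1810058I24Rik, Halr1, Bok and Pxylp1, down to 0.76. Rarb had Camsap2, Sorbs3, Nradd, Tapt1 and Fkbp14 with r from 0.82 to 0.80, and Rara had Lmnb2, Topors, Rhbdf1, Tnrc18 and Phf23 with r from 0.76 to 0.69. The lowest r were those of Dhrs3 with Tcn2, Hsd17b11, Far1, Hps5 and Anpep, from 0.67 to 0.66. With Spearman's correlation 0 of the 5 genes were kept for Stra6 and 0 for Rbp4, against 1 to 3 for each other member. Among the members themselves Aldh1a1 and Aldh1a2 had r = 0.54 and Aldh1a2 and Rarb 0.47.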

How the data were processed

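Single-cell RNA was captured on the BD Rhapsody platform, and for each of 3 libraries the authors deposited UMI counts by gene and barcode, raw and not normalized, with a list of barcodes beside them. The submitters' processing notes name CASAVA 1.8, UMI-tools, Seurat and the build mm10. The counter's other settings are not given in the sources used here. The Sham and IRI24h-TDN tables both held 10062 barcodes and 20800 genes, not the same genes, whereas 9884 barcodes and 19242 genes were in that of IRI24h-TD. The tables list genes with at least 1 UMI. Totals were 69980443, 92355554 and 93470709 UMIs.

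Barcodes with under 200 genes (2109) or over 50% mitochondrial UMIs (1139) were left out. From 2000 variable genes (retinoid, haemoglobin, ribosomal and mitochondrial genes were barred) 30 principal components were taken, and libraries were aligned on them by the Harmony procedure in numpy 2.4.6. Leiden clusters (leidenalg 0.10.2, igraph 0.11.9) were built from 15 neighbours at resolution 1, and for parietal and proximal clusters again at 0.9. A class needed at least 3 markers of a list, each in 25% of cells. The limits of 5000, 1000 and 15000 CPM on podocyte and parietal lists were set after the clusters had been seen, and the limit of 1000 after Aldh1a1 had been seen to lead a cluster. The names are rebuilt here, and a difference from the cell groups of the study may be due to that. Doublets were scored by simulation and kept, with removal of the top 6% as an alternative. Python 3.11.15, scipy 1.17.1, pandas 2.3.3, scikit-learn 1.9.0 and matplotlib 3.10.9 were used, and TMM scaling alone came from edgeR 4.0.16 (R 4.3.3).

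The members, the gene lists and the marker lists were chosen with earlier results of these data known. Named were all 7 members, other retinoid genes at least 2-fold apart in a comparison or highest of their step in PEC-like cells, their Aldh1a and Rar paralogues, the 5 genes of most like pattern per member (among genes with at least 200 UMIs), and markers that check a class, except for some genes that are not reported here. Clusters and subclusters of members were described after their values were seen. Summed UMIs were compared by ratio, with exact conditional binomial 95% intervals. For the 2-fold calls and the alternatives, a group with under 3 UMIs was counted as 3. In counts simulated from these cells, 100% of 4-fold changed and 7.05% of unchanged genes were called for PEC-like against podocyte-like cells over 11851 genes, and 99.0% and 2.62% for IRI24h-TDN against Sham in PEC-like cells over 7587 genes. Unchanged genes were called through counting noise. The simulation held no other noise, so differences between cells, mice or libraries are not covered by these rates. Changes were planted only in genes above a lower limit on expected UMIs in the smaller group. Gene positions are from GENCODE M21 (GRCm38).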

Additional observations from a re-analysis of the deposited data

Results flagged for a closer look

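Aldh1a1 had log2 differences of IRI24h-TDN against Sham with opposite signs in different classes, -4.36 in PEC-like cells, which rests on 1 UMI in IRI24h-TDN and turned to 0.22 with markers required in 40% of cells, and 3.31 in PTEC-like cells. Dhrs3 likewise had -2.49 in ascending limb-like cells and 1.39 in fibroblast-like cells, a class whose fibroblast marker sum also differed between the libraries. With 1 library per condition the difference between classes was not tested for either gene. These classes are the lowest and the highest of those read for each gene.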

How the results depend on the processing

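No paired analysis was possible because each condition had 1 library, and leaving out a replicate was not possible for the same reason. Members 2-fold apart between PEC-like and podocyte-like cells numbered 4, and 2 with 4000 variable genes. For IRI24h-TDN against Sham in PEC-like cells the count was 2, and 1 with resolution 0.5, with 4000 variable genes or with at least 100 UMIs in the higher group. In podocyte-like cells it was 1, and 2 with resolution 0.5, resolution 2 or TMM scaling, 3 without the top 1% of cells for each gene or at a limit of 1.5-fold, and 0 with the parietal list at 2000 CPM, an alternative chosen after seeing the data. In PTEC-like cells it was 2, and 1 with 4000 variable genes, with thinned counts or with at least 100 UMIs. For IRI24h-TD against IRI24h-TDN in PEC-like cells it was 0, and 1 with at least 500 genes per cell or resolution 2. The counts for PEC+PTEC-like cells against PEC-like and against PTEC-like cells, 4 each, for IRI24h-TD against IRI24h-TDN in podocyte-like cells, 0, and for the other retinoid genes called in any comparison, 31, stayed within 1.5 times. In 3 comparisons added after seeing the data, IRI24h-TDN against Sham gave 2 in PEC+PTEC-like cells (1 without correction between libraries, 5 at 1.5-fold, 4 with markers in 40% of cells) and 4 in fibroblast-like cells (2 without correction, with thinned counts or with at least 100 UMIs), and IRI24h-TD against IRI24h-TDN gave 2 in PEC+PTEC-like cells (0 with at least 500 genes, at most 25% mitochondrial UMIs or thinned counts, 1 without the top doublet scores, at resolution 0.5, without the top 1% of cells or with TMM, 4 at 1.5-fold). Of the 35 genes of like pattern 11 were kept with Spearman's correlation and 28 with a pseudocount of 20. Of 784 log2 differences of single members under alternatives, 646 stayed within the counting interval of the reported value, 136 moved beyond it and 2 reversed a called direction, Aldh1a1 in PEC-like cells of IRI24h-TDN against Sham at 0.22 with markers in 40% of cells (also added after seeing the data) and Rbp4 in fibroblast-like cells at -0.55 without correction between libraries. The cause was not tested. No fibroblast-like class was named with 4000 variable genes or without the top doublet scores, and Rbp4 was then highest in endothelial-like cells, at 4.37 and 4.41 CPM. Without correction the class had 46 cells, with Rbp4 at 345 CPM. Depth limits Rarb, Stra6 outside PEC+PTEC-like cells and Aldh1a1 in the 78 PEC-like cells of IRI24h-TDN.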

Other observations

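Some clusters outside the comparisons had high levels of members. They were chosen after their values were seen and are given as values. Rara was at 98.5 CPM (74.2-128) in a monocytic-like cluster of 81 cells led by H2-Ab1 and Cd74, genes of antigen presentation, and at 83.2 CPM (69.9-98.4) in an unnamed cluster of 256 cells led by Chil3 and Lyz2, above its level in any class. Aldh1a1 was at 71.9 CPM, from 38 UMIs in 7 cells, in an unnamed cluster of 43 cells led by Sprr1a, Krt19, Krt5 and Foxq1.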
